A study of Mus musculus with 6 samples.

Results

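The genes described here are 54 liver enzymes that break down tyrosine, tryptophan, histidine, serine, glycine, methionine, choline, lysine, proline and the branched-chain amino acids, that move amino groups between amino acids and keto acids, or that make serine and asparagine. They were taken by gene name from a written list, chosen with earlier results of these data known. Of the 54 names 53 were found among the 31950 genes of the deposited table. The remaining name, Mut, the methylmalonyl-CoA mutase gene, was not found as such; its identifier (ENSMUSG00000023921) is listed under the name Mmut, which is given once below and is not counted among the 53. All 53 passed the filter on low values, a mean of at least 0.5 FPKM over the 6 livers. FPKM are fragments of a gene per length of its transcripts and per total of mapped fragments, so that levels of different genes can be set side by side.

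RNA was sequenced from 3 wild-type (WT) livers and 3 livers carrying 1 β-catenin (Ctnnb1) allele without exon 3 (β-cateninΔ(ex3)/+), to find the genes whose expression differs when β-catenin is constitutively active. The labels give C57BL/6 mice at 8 weeks of age for both groups. Livers of this name came, in the study's metabolite work, from mice in which tamoxifen switched on a Cre recombinase under the albumin promoter, which acts in hepatocytes. The methods for the RNA-seq name no Cre driver and do not say whether the WT mice carried Cre or received tamoxifen. The p-values below measure the spread between these 6 livers.

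Hepatocytes are the main site of amino acid breakdown. Transaminases and dehydratases first remove the amino group, which goes to urea or glutamine, and the carbon skeletons then pass to the citric acid cycle, glucose or ketone bodies. The methionine cycle runs beside these routes: methionine becomes S-adenosylmethionine, the methyl donor of the cell, then homocysteine, which is either methylated again by betaine from choline or passed on to cysteine and taurine. Hepatocytes around the central vein, where Wnt/β-catenin signalling is active, and those around the portal vein hold different sets of these enzymes.

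The groups differed in more than the labels say. Xist, the RNA of the inactive X chromosome, was at 20.3 to 22.2 FPKM in WT livers and at 0 to 0.0146 FPKM in β-cateninΔ(ex3)/+ livers, whereas the sum of 4 Y-linked genes was 0 to 0.0428 FPKM in WT livers and 16.3 to 17.2 FPKM in β-cateninΔ(ex3)/+ livers. No source used here gives the sex of the animals. A list of 7 genes of the fetal and newborn liver, Afp among them, summed to 3813 to 3880 FPKM in WT livers and to 3.99 to 4.39 FPKM in β-cateninΔ(ex3)/+ livers. All 5 of its genes that could be tested were lower there and 2 were listed at 0 in every β-cateninΔ(ex3)/+ liver. Of 8 genes of the adult liver 6 were higher and 2 lower in β-cateninΔ(ex3)/+ livers, and 2 were listed at 0 in every WT liver. In each case the libraries of 1 group were alike, so the sex and developmental stage that these genes mark and the genotype cannot be told apart in any result below. Of 14 known β-catenin target genes 12 were higher and 2 lower (10 and 2 after either scaling, where 2 did not pass). Ctnnb1 itself had 25.9, 27.95 and 27.3 FPKM in WT and 25.4, 25.2 and 25.04 FPKM in β-cateninΔ(ex3)/+ livers, values per gene that cannot show the loss of an exon. Of 10 genes known from periportal hepatocytes, Hal and Sds among them, 6 were higher and 3 lower. Of 7 hepatocyte genes 2 were higher and 5 lower, with a sum of 72813 to 76174 FPKM in WT and 36993 to 37393 FPKM in β-cateninΔ(ex3)/+ livers. Summed erythroid markers (1782 to 2008 FPKM against 1002 to 1020 FPKM) and stellate cell markers (93.7 to 95.7 FPKM against 28.8 to 32.2 FPKM) were lower in β-cateninΔ(ex3)/+ livers, as were endothelial markers (68.6 to 69.9 FPKM against 49.3 to 50.5 FPKM, 6 of 6 genes lower). The sum of cholangiocyte markers was also lower (39.6 to 43.1 FPKM against 18.5 to 19.3 FPKM). Most of it was Spp1, with means of 36.7 FPKM in WT and 15.3 FPKM in β-cateninΔ(ex3)/+ livers. Of the 4 cholangiocyte genes tested 2 were lower and 2 did not pass. Summed macrophage markers (137 to 144 FPKM against 263 to 266 FPKM, 5 genes higher and 1, Marco, lower) and proliferation markers (12.9 to 14.8 FPKM against 30.7 to 31.6 FPKM, 6 of 6 higher, 4 of 6 after either scaling) were higher. The part of these differences in the results below was not tested. Steps in the low values gave the β-cateninΔ(ex3)/+ libraries 0.685 to 0.789 times the depth of WT replicate 1.

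**Figure D1:**
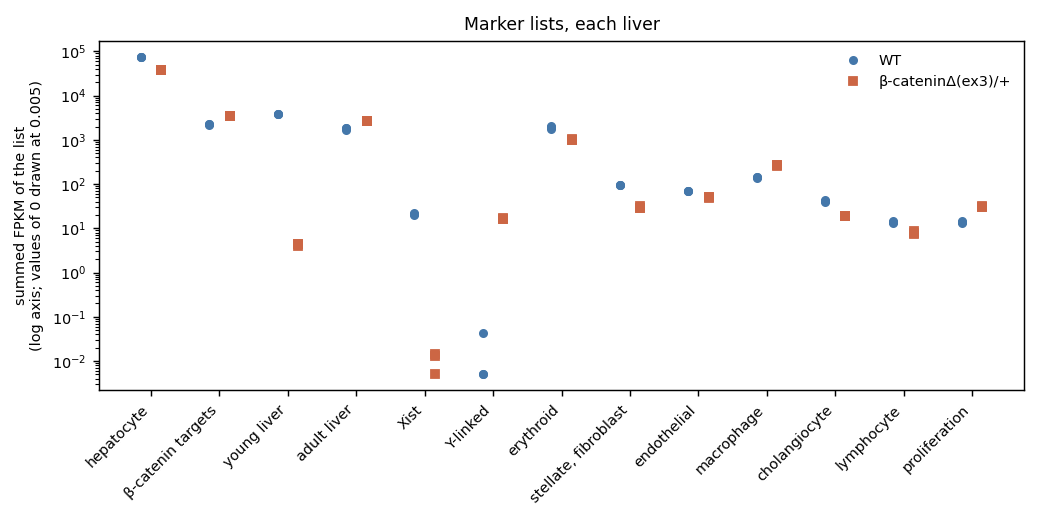
Summed FPKM of marker gene lists (log axis, sums of 0 drawn at 0.005) in each WT liver (circles) and each β-cateninΔ(ex3)/+ liver (squares). The fetal and newborn (young) liver list falls from 3813 to 3880 FPKM in WT to 3.99 to 4.39 FPKM in β-cateninΔ(ex3)/+ livers, and Xist and the Y-linked genes are each seen in 1 group and near 0 in the other.

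Of the 53 enzymes, 29 were higher and 18 lower in β-cateninΔ(ex3)/+ livers at a limma adjusted p under 0.05, and 6 did not pass. Among all 13243 genes tested 57% passed, 37.4% higher and 19.6% lower. With the study's second threshold, a fold change of at least 2, 19 of the enzymes were higher (35.8% of 53, against 8.17% of all genes tested) and 5 were lower (9.43%, against 4.52%), where 12.7% of all genes tested were past both thresholds in either direction. The ranges of the groups were separate for 49 of the 53, against 66% of all genes tested. Because the enzymes were chosen with earlier results of these data known, these shares are no test of the list. Counts by marker list or pathway, each over few chosen genes, are no test either and stand beside the same shares of all genes. Since most of these enzymes are abundant, the shares were also taken among genes with a mean of at least 10 FPKM: 18 of 44 enzymes were higher past both thresholds (40.9%, against 14.9% of 3126 genes) and 2 were lower (4.55%, against 6.37%). That mean was over all 6 livers, so Prodh, Gpt, Gpt2 and Kynu reached it only through their β-cateninΔ(ex3)/+ levels. Phgdh, Psat1 and Asns, all lower, fell under it. The shares at this cut therefore cannot separate abundance from the change itself. The filter at 0.5 FPKM was also on the mean over all 6 livers. Prodh and Acmsd reached it only through their β-cateninΔ(ex3)/+ levels, with WT means of 0.380 and 0.198 FPKM. Phgdh reached it only through its WT level, with a β-cateninΔ(ex3)/+ mean of 0.408 FPKM. The median log2 fold change of the enzymes was 0.20, beside 0.14 for all genes tested. By pathway it was 1.73 over 3 lysine and proline genes, 1.22 over 5 tryptophan genes, 1.04 over 9 methionine and sulphur genes, 0.75 over 4 histidine genes and 0.65 over 5 tyrosine genes. It was 0.20 over 5 genes of serine and glycine breakdown, 0.15 over 4 choline genes, 0.014 over 6 aminotransferases, -0.27 over 8 branched-chain and propionate genes and -1.65 over 4 genes of serine and asparagine synthesis. After quantile normalization the medians of serine and glycine breakdown (-0.10), of choline (-0.093) and of the aminotransferases (-0.23) were on the other side of 0, and the other 7 kept their sign. Median-ratio scaling also turned those of choline (-0.046) and of the aminotransferases (-0.18), and left that of serine and glycine breakdown at 0.017. With the libraries scaled by median ratios, the median was 0.017 for the enzymes and 0.0081 for all genes, and 16 enzymes were higher and 6 lower past both thresholds. After quantile normalization the median was -0.095 for the enzymes and -0.020 for all genes, and 14 enzymes were higher and 7 lower. Replicates were close, with a median coefficient of variation over the 53 enzymes of 4.03% in WT and 2.30% in β-cateninΔ(ex3)/+ livers.

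**Figure D2:**
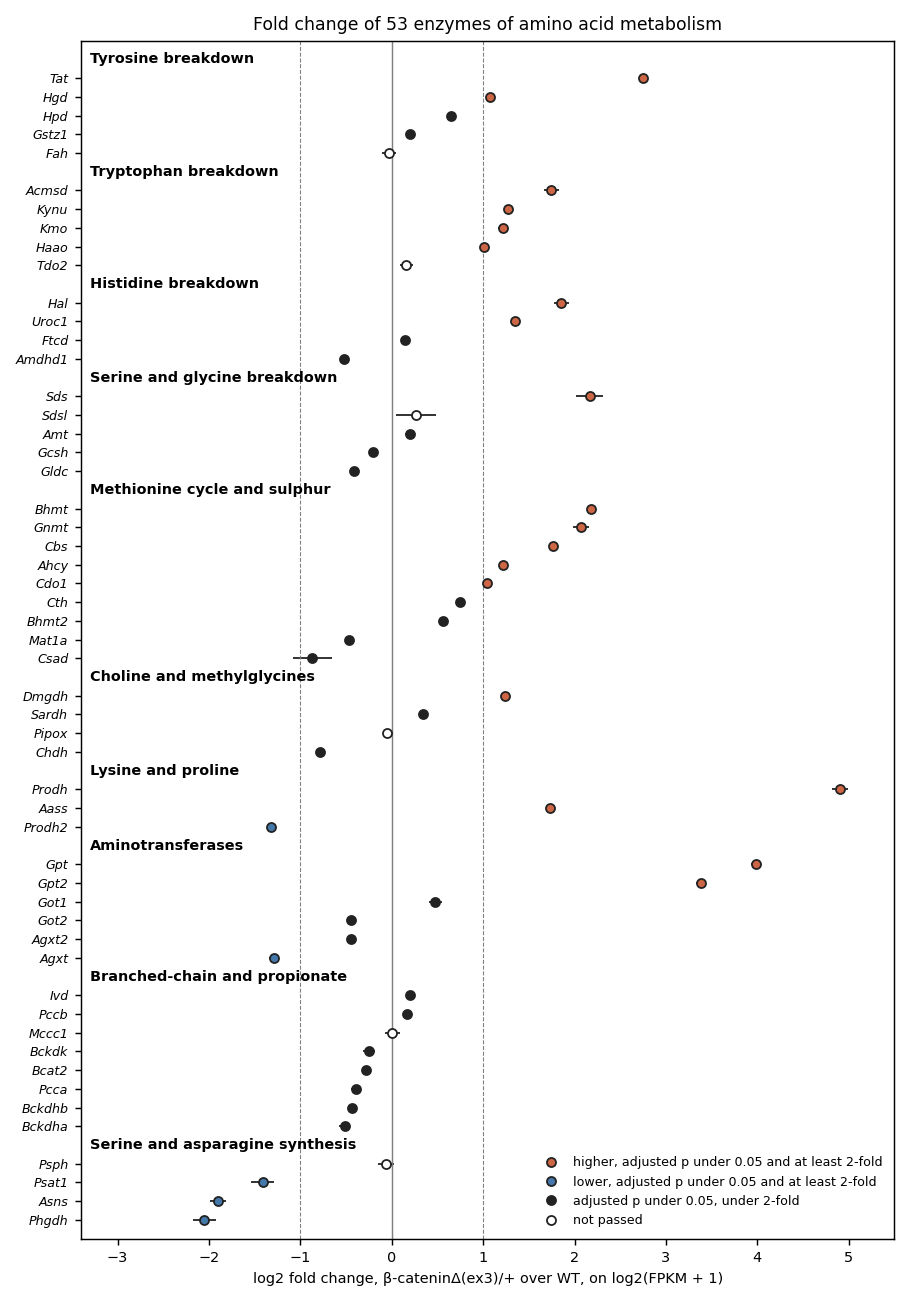
Log2 fold change of each of the 53 enzymes, β-cateninΔ(ex3)/+ over WT (points, with the standard error of the limma fit as bars), by pathway, on the log2(FPKM + 1) scale, with dashed lines at 2-fold. Prodh, Gpt and Gpt2 lie farthest to the right, and Phgdh, Asns and Psat1, all of serine and asparagine synthesis, farthest to the left.

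Tyrosine is degraded in 5 steps, and the genes of the first 3 rose. Tat, tyrosine aminotransferase, the first and usually rate-limiting enzyme (ENSMUSG00000001670, chromosome 8, 109990437 to 109999803), had 46.9, 49.8 and 50.03 FPKM in the WT livers and 337, 329 and 337 FPKM in the β-cateninΔ(ex3)/+ livers. The 6.84-fold difference between the means (48.9 ± 1.73 FPKM against 334 ± 4.87 FPKM, SD, n = 3 each) was far beyond the spread within either group (log2 fold change 2.75, standard error 0.036, limma adjusted p = 7.33e-08). In bulk liver a higher level in each hepatocyte and a larger share of hepatocytes that express the gene cannot be told apart. Hpd, the dioxygenase of the next step and the most abundant gene of the route, rose from 386, 398 and 377 FPKM to 609, 623 and 594 FPKM (log2 fold change 0.65, standard error 0.032, limma adjusted p = 1.62e-05). Hgd, homogentisate dioxygenase, rose from 82.4, 83.7 and 81.9 FPKM to 173, 177 and 175 FPKM (log2 fold change 1.07, standard error 0.028, limma adjusted p = 1.05e-06). Neither gene showed overlap between the groups, but Hgd was under 2-fold after median-ratio scaling and quantile normalization. The isomerase gene Gstz1 was only slightly higher, with a log2 fold change of 0.20 that turned to -0.057 after quantile normalization. Fah, whose product makes fumarate and acetoacetate in the last step, had 259, 291 and 241 FPKM in WT and 268, 244 and 262 FPKM in β-cateninΔ(ex3)/+ livers. Its groups overlapped and it did not pass (log2 fold change -0.029, standard error 0.077, limma adjusted p = 0.766).

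Tryptophan is broken down through kynurenine, and here 4 of 5 genes were higher past both thresholds while the gene of the first enzyme did not pass. Of all genes tested 8.17% were higher past both thresholds. Tdo2, tryptophan dioxygenase, had 75.3, 89.6 and 87.5 FPKM in WT and 92.3, 94.7 and 94.6 FPKM in β-cateninΔ(ex3)/+ livers. The groups did not overlap, yet WT replicate 1 lay apart from the other WT livers and the difference did not pass (log2 fold change 0.16, standard error 0.07, limma adjusted p = 0.0963). The next enzymes stood at lower levels and rose more. Kmo, which hydroxylates kynurenine, had 16.1, 18.2 and 16.6 FPKM in WT livers and 40.1, 40.96 and 41.1 FPKM in β-cateninΔ(ex3)/+ livers (log2 fold change 1.22, standard error 0.055, limma adjusted p = 1.08e-05). Kynu, kynureninase, had 7.15, 7.05 and 7.31 FPKM and 19.02, 18.6 and 18.8 FPKM (log2 fold change 1.28, standard error 0.04, limma adjusted p = 2.28e-06). For both, replicates differed by much less than the groups, although Kmo was under 2-fold after quantile normalization. Haao, which opens the ring of hydroxyanthranilate, had 39.5, 38.3 and 40.4 FPKM in WT and 80.6, 79.1 and 81.3 FPKM in β-cateninΔ(ex3)/+ livers (log2 fold change 1.01, standard error 0.035, limma adjusted p = 3.79e-06). It lay just past the fold change threshold and fell under it after both scalings and without WT replicate 2. Acmsd, the decarboxylase that diverts the intermediate away from NAD synthesis, was the least abundant of the 53 enzymes in WT, with 0.172, 0.259 and 0.164 FPKM, and had 3.21, 2.68 and 3.18 FPKM in β-cateninΔ(ex3)/+ livers. Its means differed 15.3-fold, while on the log2(FPKM + 1) scale, which understates changes of genes this low, the difference came to 1.75 (standard error 0.079, limma adjusted p = 1.11e-05).

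The histidine genes split between enzymes. Hal, histidine ammonia-lyase, which starts the route (ENSMUSG00000020017, chromosome 10, 93488768 to 93519304), had 10.04, 11.6 and 9.29 FPKM in WT and 40.7, 38.9 and 39.7 FPKM in β-cateninΔ(ex3)/+ livers, a 3.86-fold difference of the means (log2 fold change 1.86, standard error 0.079, limma adjusted p = 8.52e-06). Uroc1, urocanate hydratase, which had the highest mean of the histidine genes over the 6 livers, had 70.9, 73.2 and 73.6 FPKM and 187, 189 and 183 FPKM (log2 fold change 1.35, standard error 0.031, limma adjusted p = 6.71e-07). Every β-cateninΔ(ex3)/+ liver was above every WT liver for both. Amdhd1, the enzyme after Uroc1, moved the other way and fell from 72.2, 67.001 and 71.6 FPKM to 48.3, 48.5 and 48.7 FPKM (log2 fold change -0.53, standard error 0.04, limma adjusted p = 9.98e-05). Hal and Amdhd1 lie beside each other on chromosome 10, on opposite strands with their 3′ ends 4033 bases apart. Ftcd, which hands the remaining carbon of histidine to folate, was barely higher, with a log2 fold change of 0.14, and after median-ratio scaling (-0.048) and quantile normalization (-0.13) it was on the other side of 0. With quantile normalization Ftcd passed as lower (limma adjusted p = 0.0168), and with median-ratio scaling it did not pass (limma adjusted p = 0.233).

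The promoters of Hal and Haao are shown because both genes rose and both windows hold the letters CTTTGA, the core of the sites bound by TCF/LEF, the DNA-binding partners of β-catenin. The sequences are RefSeq windows on GRCm38.p6, 5′ to 3′ on the strand of the gene, from 250 bases before to 50 bases after the start, at chr10:93488518-93488817 (plus strand) for Hal and chr17:83846741-83847040 (minus strand) for Haao, and capitals mark CTTTGA.
Hal: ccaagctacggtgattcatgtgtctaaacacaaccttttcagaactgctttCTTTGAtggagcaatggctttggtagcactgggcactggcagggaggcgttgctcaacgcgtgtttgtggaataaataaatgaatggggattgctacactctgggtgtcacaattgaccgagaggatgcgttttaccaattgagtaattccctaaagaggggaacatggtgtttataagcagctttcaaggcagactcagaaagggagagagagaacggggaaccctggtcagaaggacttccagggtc
Haao: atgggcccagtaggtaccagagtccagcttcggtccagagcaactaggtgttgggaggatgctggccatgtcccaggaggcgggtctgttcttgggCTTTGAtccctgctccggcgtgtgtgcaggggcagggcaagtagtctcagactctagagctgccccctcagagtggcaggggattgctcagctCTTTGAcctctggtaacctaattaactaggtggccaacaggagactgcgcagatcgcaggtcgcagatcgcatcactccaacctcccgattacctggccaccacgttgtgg
Hal holds 1 such match, 199 bases before the start, and Haao 2, at 154 and 61 bases before it. RefSeq windows were found for 46 of the 53 enzymes, and 33 of them began within 50 bases of the deposited start of the gene. On either strand CTTTGA was present in 6 of these 33, in 4 of the 12 that were higher past both thresholds (Uroc1, Hal, Aass and Haao) and in 1 of the 4 that were lower (Agxt), and in 16.0% of all 32851 RefSeq windows of this length. The remaining match was in the window of Agxt2, which was lower by less than 2-fold (log2 fold change -0.45). The longer CTTTGAT, which contains CTTTGA, was present in 3 of 33 (Hal, Haao and Agxt2) and in 3.73% of all windows. A match of letters is no binding site, and sites farther away were not searched.

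Serine and glycine genes went separate ways. Sds, serine dehydratase, which turns serine into pyruvate, had 19.8, 13.9 and 20.8 FPKM in WT and 81.6, 85.4 and 84.5 FPKM in β-cateninΔ(ex3)/+ livers (log2 fold change 2.16, standard error 0.14, limma adjusted p = 5.85e-05), a 4.61-fold difference of the means. WT replicate 2 was the lowest of the WT livers, and none came near the β-cateninΔ(ex3)/+ livers. The glycine cleavage system, which feeds a carbon unit of glycine to folate, was represented by 3 genes. Gldc, the glycine decarboxylase, fell from 18.01, 18.9 and 18.6 FPKM to 13.6, 13.6 and 13.6 FPKM (log2 fold change -0.42, standard error 0.039, limma adjusted p = 0.000247). Gcsh, the lipoyl carrier protein and the most abundant gene of this set, fell from 74.9, 72.5 and 71.2 FPKM to 62.7, 64.4 and 62.7 FPKM (log2 fold change -0.20, standard error 0.035, limma adjusted p = 0.00348). Groups did not overlap for either, and both differences were well under 2-fold. Amt, the aminomethyltransferase, was higher by a log2 fold change of 0.20 (limma adjusted p = 0.0201), which did not pass after median-ratio scaling and was -0.10 after quantile normalization.

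The methionine cycle held the most abundant of the enzymes and some of the clearest differences: 7 of 9 genes rose, 5 of them past both thresholds, and 2 fell. Among all genes tested 37.4% were higher, 8.17% higher past both thresholds, and 19.6% lower. Bhmt, which methylates homocysteine with betaine (ENSMUSG00000074768, chromosome 13, 93616675 to 93637961), had 243, 249 and 243 FPKM in WT and 1120.4, 1118 and 1106 FPKM in β-cateninΔ(ex3)/+ livers. Gnmt, which spends S-adenosylmethionine on glycine, had 260.2, 212 and 265 FPKM and 1029, 1037 and 1034 FPKM. The means of Bhmt rose 4.55-fold (log2 fold change 2.18, standard error 0.023, limma adjusted p = 4.09e-08) and those of Gnmt 4.20-fold (log2 fold change 2.07, standard error 0.086, limma adjusted p = 7.77e-06), and WT replicate 2 was the lowest liver for Gnmt. Ahcy, which splits S-adenosylhomocysteine into homocysteine, had 162, 158 and 161 FPKM in WT and 398, 363 and 359.6 FPKM in β-cateninΔ(ex3)/+ livers (log2 fold change 1.21, standard error 0.045, limma adjusted p = 4.8e-06). Cbs, which joins homocysteine with serine as the first step to cysteine, had 17.1, 16.8 and 17.9 FPKM and 61.4, 63.1 and 58.6 FPKM (log2 fold change 1.76, standard error 0.046, limma adjusted p = 1.08e-06). Both stood higher in every β-cateninΔ(ex3)/+ liver than in any WT liver. Cth, which releases the cysteine, rose less, by a log2 fold change of 0.75 (limma adjusted p = 3.04e-05). Cdo1, cysteine dioxygenase, had 232, 252 and 232 FPKM in WT and 493, 489 and 497 FPKM in β-cateninΔ(ex3)/+ livers (log2 fold change 1.04, standard error 0.039, limma adjusted p = 4.94e-06), and was under 2-fold after both scalings.

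The genes at the start of the methionine cycle and at the end of the sulphur route fell. Mat1a, which makes S-adenosylmethionine in hepatocytes, was the most abundant of the 53 enzymes in WT livers and fell from a mean of 483 ± 10.8 FPKM in WT to 348 ± 3.43 FPKM in β-cateninΔ(ex3)/+ livers (SD, n = 3), a log2 fold change of -0.47 (limma adjusted p = 3.09e-05). Csad, which decarboxylates the product of Cdo1 on the way to taurine, had 51.4, 31.6 and 32.3 FPKM in WT and 22.01, 16.9 and 21.8 FPKM in β-cateninΔ(ex3)/+ livers (log2 fold change -0.87, standard error 0.21, limma adjusted p = 0.014). WT replicate 1 stood well above the other WT livers, and without it the log2 fold change was -0.64.

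Choline is oxidised to betaine, and the methyl groups left after Bhmt has used it are removed step by step down to glycine. Chdh, choline dehydrogenase at the head of the route, fell by 0.78 on the log2 scale, from 18.7 ± 0.278 FPKM in WT to 10.4 ± 0.391 FPKM in β-cateninΔ(ex3)/+ livers (SD, n = 3). In the main comparison the demethylating enzymes went the other way or did not pass. Dmgdh, which demethylates the dimethylglycine that Bhmt produces, had 66.8, 69.97 and 71.5 FPKM in WT and 166, 163 and 165 FPKM in β-cateninΔ(ex3)/+ livers (log2 fold change 1.24, standard error 0.036, limma adjusted p = 1.63e-06), and was under 2-fold only after quantile normalization. Sardh, which takes the next methyl group, had 116, 115 and 122 FPKM and 149, 147 and 153 FPKM (log2 fold change 0.34, standard error 0.037, limma adjusted p = 0.000453), a small difference without overlap. Pipox, an oxidase of sarcosine and pipecolate, was at 82.4 ± 1.15 FPKM in WT livers and 79.5 ± 1.13 FPKM in β-cateninΔ(ex3)/+ livers (SD, n = 3 each) and did not pass (limma adjusted p = 0.19). After either scaling Pipox passed as lower, so that 2 of these 4 genes were higher and 2 lower.

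Dmgdh lies back to back with Bhmt2 on chromosome 13, and Bhmt lies beside Bhmt2. The gene bodies of Bhmt2 and Dmgdh are 130 bases apart on opposite strands, and their promoter windows share 233 bases, so the Dmgdh window (GRCm38.p6, chr13:93674186-93674485, plus strand, 5′ to 3′, from RefSeq) covers that gap and the beginning of both genes. It holds no CTTTGA on either strand and is therefore printed without capitals.
Dmgdh: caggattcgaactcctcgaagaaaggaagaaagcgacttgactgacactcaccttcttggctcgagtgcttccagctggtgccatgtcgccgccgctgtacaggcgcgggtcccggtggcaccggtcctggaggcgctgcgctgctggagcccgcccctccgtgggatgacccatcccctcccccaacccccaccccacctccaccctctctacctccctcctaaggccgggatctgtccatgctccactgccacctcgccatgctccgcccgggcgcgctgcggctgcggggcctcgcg
With 130 bases between them, Dmgdh rose by a log2 fold change of 1.24 and Bhmt2 by 0.56, while Bhmt, which starts elsewhere, rose by 2.18.

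Lysine and proline breakdown included the largest change of all the enzymes. Prodh, proline dehydrogenase (ENSMUSG00000003526, chromosome 16, 18060357 to 18090203), had 0.385, 0.294 and 0.461 FPKM in WT and 44.7, 39.5 and 37.2 FPKM in β-cateninΔ(ex3)/+ livers. The means (0.380 ± 0.0835 FPKM against 40.5 ± 3.82 FPKM, SD, n = 3 each) differed 107-fold (log2 fold change 4.91, standard error 0.085, limma adjusted p = 2.02e-07), and the gene was under 1 FPKM in every WT liver. Aass, which starts lysine breakdown, had 10.8, 11.7 and 11.04 FPKM in WT and 40.03, 39.2 and 38.99 FPKM in β-cateninΔ(ex3)/+ livers (log2 fold change 1.73, standard error 0.043, limma adjusted p = 9.37e-07). Prodh2, which oxidises hydroxyproline and not proline, went down, from 159, 147 and 161 FPKM to 61.05, 60.8 and 62.7 FPKM (log2 fold change -1.32, standard error 0.043, limma adjusted p = 2.71e-06). For these 3 genes no liver of 1 group reached the range of the other.

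**Figure D3:**
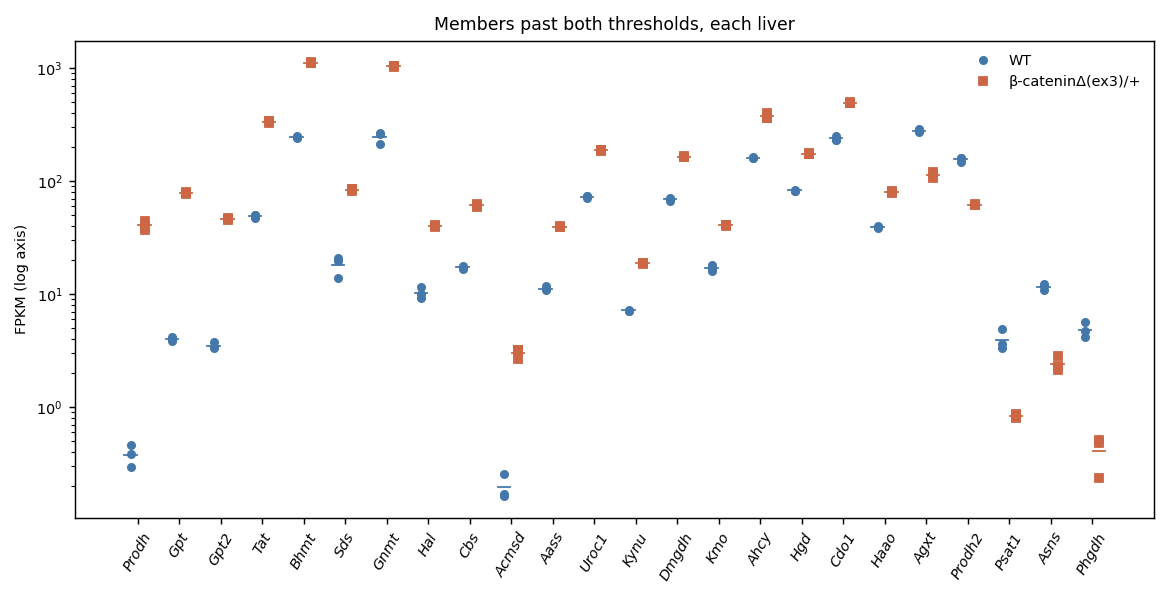
FPKM in each liver (log axis) of the 24 enzymes past both thresholds, ordered by log2 fold change, with WT livers as circles, β-cateninΔ(ex3)/+ livers as squares and the group mean as a short line. No gene shown overlaps between the groups, and the widest relative spread is that of Phgdh in β-cateninΔ(ex3)/+ livers.

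Among the aminotransferases the alanine enzymes rose, and the other 4 genes changed less or fell. Gpt, the cytosolic alanine aminotransferase whose activity in serum is read as a sign of liver injury (ENSMUSG00000022546, chromosome 15, 76695716 to 76699686), had 4.21, 3.996 and 3.85 FPKM in WT and 80.1, 76.8 and 77.7 FPKM in β-cateninΔ(ex3)/+ livers. Gpt2, the mitochondrial enzyme, had 3.41, 3.76 and 3.36 FPKM and 46.9, 46.4 and 44.9 FPKM. Both were low in every WT liver and more than 10 times higher in every β-cateninΔ(ex3)/+ liver, 19.5-fold by the means for Gpt (log2 fold change 3.98, standard error 0.045, limma adjusted p = 4.43e-08) and 13.1-fold for Gpt2 (log2 fold change 3.38, standard error 0.051, limma adjusted p = 1.2e-07). The aspartate enzymes parted: cytosolic Got1 rose from 33.2, 35.5 and 34.7 FPKM to 45.8, 53.6 and 45.8 FPKM (log2 fold change 0.47, standard error 0.072, limma adjusted p = 0.00206). Mitochondrial Got2 fell from 126, 129.5 and 126 FPKM to 93.6, 92.9 and 93.3 FPKM (log2 fold change -0.45, standard error 0.028, limma adjusted p = 4.45e-05). Neither aspartate enzyme overlapped between the groups. Agxt, which removes glyoxylate in peroxisomes and had the highest mean of these 6 genes in both groups, fell from 275, 269 and 286 FPKM to 119, 106 and 112 FPKM (log2 fold change -1.29, standard error 0.051, limma adjusted p = 6.01e-06). Agxt2, a mitochondrial aminotransferase that also takes glyoxylate, fell from 49.9, 53.8 and 50.1 FPKM to 36.02, 37.8 and 38.1 FPKM (log2 fold change -0.45, standard error 0.046, limma adjusted p = 0.000387). The drop was 2.46-fold by the means for Agxt and 1.37-fold for Agxt2, without overlap for either.

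Enzymes of the same or a related reaction were compared directly by the difference of their log2(FPKM + 1) within each liver, called the log2 ratio here, which understates ratios with a gene as low as Prodh in WT. Bhmt2, which methylates homocysteine with S-methylmethionine, had 72.8, 67.96 and 70.1 FPKM in WT and 106, 101 and 105 FPKM in β-cateninΔ(ex3)/+ livers, and the log2 ratio of Bhmt to Bhmt2 was higher by 1.62 in β-cateninΔ(ex3)/+ livers. Sdsl, the neighbour of Sds on chromosome 5 with 3715 bases between the genes, had 7.95, 4.55 and 8.86 FPKM and 8.98, 7.73 and 8.84 FPKM. Its groups overlapped and it did not pass (log2 fold change 0.27, standard error 0.22, limma adjusted p = 0.335), and WT replicate 2 was the lowest WT liver for it as for Sds. The log2 ratio of Sds to Sdsl was higher by 1.896 in β-cateninΔ(ex3)/+ livers. For Prodh over Prodh2 the log2 ratio went from -6.83 ± 0.031 (SD, n = 3) in WT to -0.60 ± 0.15 (SD, n = 3) in β-cateninΔ(ex3)/+ livers, a difference of 6.23 that was 7.75 at a pseudocount of 0.1. The ratio of Got1 to Got2 was higher by 0.92, that of Gpt to Gpt2 higher by 0.60, and that of Agxt to Agxt2 changed by -0.85. In each of the 6 pairs the livers of the groups did not overlap, and each exact permutation test gave p = 0.1 (two-sided, 0.1 after adjustment over the 6 pairs), the smallest that 3 livers against 3 allow. The ranges of single genes were already separate for 66% of all genes tested. No share was taken over ratios of other gene pairs, so the separation is not particular to these pairs.

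**Figure D4:**
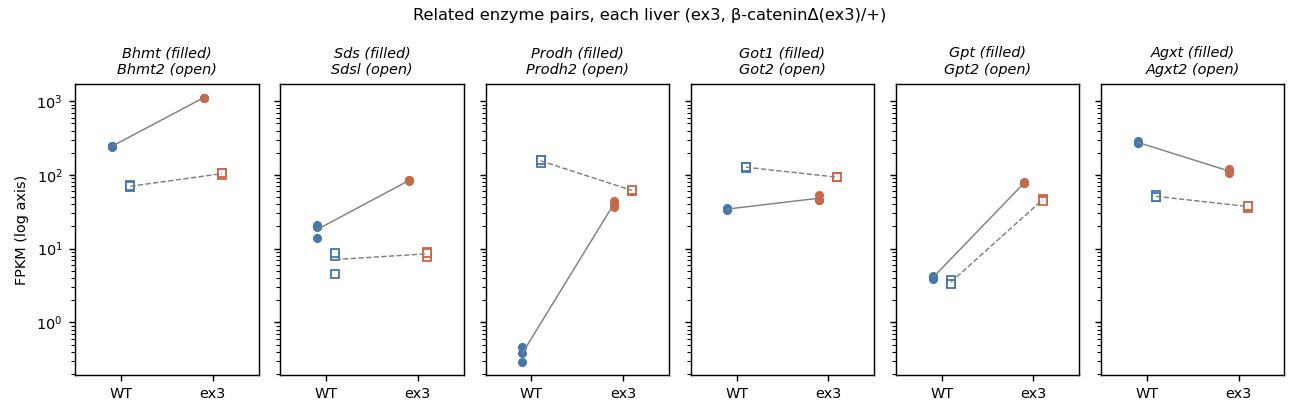
FPKM in each liver (log axis) for 6 pairs of related enzymes, with the first gene filled and the second open and lines joining the group means. The lines of Prodh and Prodh2 run toward each other, those of Gpt and Gpt2 rise together, and Sds rises above an almost level Sdsl.

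The branched-chain and propionate genes changed little: 2 of the 8 found were higher, 5 lower and 1 did not pass, none by 2-fold. The shares of all genes tested were 37.4% higher and 19.6% lower. Bckdha, a subunit of the dehydrogenase that commits branched-chain keto acids to breakdown and the most abundant of these genes, had 135, 119.5 and 137 FPKM in WT and 89.7, 88.9 and 94.2 FPKM in β-cateninΔ(ex3)/+ livers (log2 fold change -0.52, standard error 0.061, limma adjusted p = 0.000715). Its partner Bckdhb fell by 0.43 on the log2 scale, the kinase Bckdk, which switches that enzyme off, by 0.25, the aminotransferase Bcat2 by 0.28 and Pcca, a subunit of propionyl-CoA carboxylase, by 0.39. Pccb, the other subunit of that carboxylase, and Ivd, isovaleryl-CoA dehydrogenase, were higher by 0.16 and 0.20, and both were on the other side of 0 after quantile normalization. Mccc1, of leucine breakdown, had 2.36 ± 0.331 FPKM in WT livers and 2.36 ± 0.0753 FPKM in β-cateninΔ(ex3)/+ livers (SD, n = 3 each), did not pass and overlapped between the groups. Mmut, which ends the propionate route, had 22.9, 22.8 and 22.8 FPKM in WT and 27.8, 30.1 and 28.9 FPKM in β-cateninΔ(ex3)/+ livers (log2 fold change 0.33, standard error 0.042, limma adjusted p = 0.000956).

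The enzymes that make serine and asparagine went down: 3 of 4 fell past both thresholds, against 4.52% of all genes tested. Phgdh, which takes the first step from glycolysis to serine, had 4.74, 4.18 and 5.63 FPKM in WT and 0.480, 0.510 and 0.235 FPKM in β-cateninΔ(ex3)/+ livers, an 11.9-fold lower mean (log2 fold change -2.05, standard error 0.12, limma adjusted p = 3.81e-05). Psat1, the aminotransferase of the next step, had 3.31, 4.90 and 3.62 FPKM and 0.877, 0.810 and 0.835 FPKM, a 4.69-fold lower mean (log2 fold change -1.41, standard error 0.12, limma adjusted p = 0.000188). Asns, asparagine synthetase, had 11.9, 10.98 and 12.2 FPKM and 2.82, 2.29 and 2.13 FPKM, a 4.84-fold lower mean (log2 fold change -1.90, standard error 0.089, limma adjusted p = 1.29e-05). No β-cateninΔ(ex3)/+ liver reached the level of a WT liver for these 3 genes. The phosphatase of the last serine step, Psph, had 1.73, 1.23 and 1.54 FPKM in WT and 1.34, 1.41 and 1.44 FPKM in β-cateninΔ(ex3)/+ livers, with overlap between the groups (log2 fold change -0.058, standard error 0.088, limma adjusted p = 0.6). The whole set was of low abundance in liver, and Phgdh was under 1 FPKM in each β-cateninΔ(ex3)/+ liver, where the log2(FPKM + 1) scale compresses its change.

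The promoters of Asns and Phgdh are shown because both genes fell and both are known targets of ATF4, the transcription factor of the amino acid response, which binds TGATGNAA. They are RefSeq windows of the same kind (GRCm38.p6, chr6:7693160-7693459 and chr3:98339920-98340219, both on the minus strand, 5′ to 3′), with TGATGNAA in capitals.
Asns: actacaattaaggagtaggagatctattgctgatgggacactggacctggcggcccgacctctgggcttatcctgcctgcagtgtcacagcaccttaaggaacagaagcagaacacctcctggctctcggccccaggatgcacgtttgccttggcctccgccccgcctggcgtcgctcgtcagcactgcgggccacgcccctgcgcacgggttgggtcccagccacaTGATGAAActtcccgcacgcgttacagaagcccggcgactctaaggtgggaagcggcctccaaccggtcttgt
Phgdh: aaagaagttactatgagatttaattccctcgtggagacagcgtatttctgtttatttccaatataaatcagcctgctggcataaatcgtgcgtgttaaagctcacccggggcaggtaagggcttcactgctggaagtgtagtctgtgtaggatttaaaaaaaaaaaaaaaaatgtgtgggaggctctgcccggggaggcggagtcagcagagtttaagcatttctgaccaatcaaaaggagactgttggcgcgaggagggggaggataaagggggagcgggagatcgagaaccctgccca
Asns holds 1 match, 23 bases before the start, and this window of Phgdh holds none. Among the 33 windows that begin near the deposited start, TGATGNAA was found on either strand in 2, those of Asns and Got1, and in 3.97% of all windows.

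The order of the enzymes by level changed. In WT livers Mat1a, Hpd, Agxt, Fah, Gnmt and Bhmt were ranked 1 to 6 by mean FPKM, and in β-cateninΔ(ex3)/+ livers Bhmt, Gnmt, Hpd, Cdo1, Ahcy and Mat1a were. Gnmt and Bhmt in WT, at 246 ± 29.1 and 245 ± 3.47 FPKM (SD, n = 3), did not differ beyond the spread of Gnmt. Tat moved from rank 24 to rank 7, Agxt from rank 3 to rank 13 and Prodh2 from rank 9 to rank 25. The summed level of the 53 enzymes was 4131 ± 8.10 FPKM in WT livers and 7015 ± 47.7 FPKM in β-cateninΔ(ex3)/+ livers (SD, n = 3 each). Bhmt made up 5.93% of that sum in WT and 15.9% in β-cateninΔ(ex3)/+ livers, Gnmt 5.95% and 14.7%, and Mat1a 11.7% and 4.96%.

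**Figure D5:**
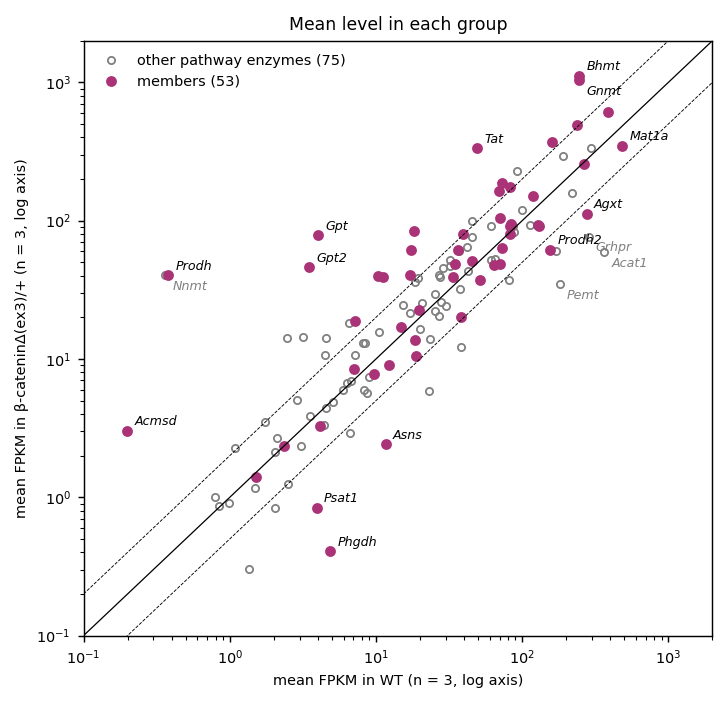
Mean FPKM in β-cateninΔ(ex3)/+ against mean FPKM in WT livers (n = 3 each, log axes) for the 53 enzymes (filled) and 75 other genes of the same pathways, nearly all enzymes (open), with a solid line of equal levels and dashed lines at 2-fold. Bhmt and Gnmt are at the top, Prodh and Acmsd far above the line, and Phgdh, Psat1 and Asns below it.

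A wider list held 81 further genes of the same pathways, nearly all of them enzymes, with the folate transporter Slc46a1 and the folate receptor Folr1 among them. Of these 75 could be tested, and 32 were higher (42.7%, against 37.4% of all genes tested), 25 lower (33.3%, against 19.6%) and 18 did not pass. Past both thresholds 7 were higher and 7 lower (9.33% each, against 8.17% and 4.52%), so the higher share was near that of all genes, and the median log2 fold change was 0.076, or -0.081 with median-ratio scaling and -0.11 with quantile normalization. All 5 further genes of tyrosine and phenylalanine metabolism were higher, of which 3 passed after either scaling, and all 3 of threonine, serine and glycine metabolism were higher with each. Of 7 further tryptophan genes 2 were higher, 3 lower and 2 did not pass (median log2 fold change -0.030), and Kyat3, a kynurenine aminotransferase, had 38.3, 38.7 and 37.95 FPKM in WT and 12.3, 11.9 and 12.5 FPKM in β-cateninΔ(ex3)/+ livers. Of 17 branched-chain and propionate genes 4 were higher and 10 lower, of 14 folate genes 7 were higher and 3 lower, and of 16 genes of methyl and sulphur metabolism 7 were higher and 4 lower (6 and 6 after either scaling). The largest rise was that of Nnmt, which methylates nicotinamide with S-adenosylmethionine, from 0.391, 0.153 and 0.537 FPKM in WT to 41.4, 39.1 and 40.3 FPKM in β-cateninΔ(ex3)/+ livers (log2 fold change 4.93, standard error 0.11, limma adjusted p = 5.57e-07). Ido2, a relative of Tdo2 in function, rose from 2.31, 2.74 and 2.31 FPKM to 13.6, 14.1 and 14.5 FPKM (log2 fold change 2.13, standard error 0.066, limma adjusted p = 2.36e-06), and Ddc, an aromatic amino acid decarboxylase, from 2.89, 3.18 and 3.49 FPKM to 14.1, 14.2 and 14.8 FPKM (log2 fold change 1.88, standard error 0.065, limma adjusted p = 3.75e-06). The groups did not overlap for any of the 3. Acat1, a mitochondrial thiolase of isoleucine and ketone body metabolism, fell from 360.0, 369 and 364 FPKM to 59.3, 59.6 and 58.1 FPKM (log2 fold change -2.61, standard error 0.028, limma adjusted p = 4.09e-08). Pemt, which spends S-adenosylmethionine on phosphatidylcholine, fell from 180.4, 177 and 184 FPKM to 35.1, 36.01 and 33.2 FPKM (log2 fold change -2.34, standard error 0.04, limma adjusted p = 2e-07). Grhpr, which reduces glyoxylate, fell from 303, 268 and 284 FPKM to 81.9, 68.8 and 79.2 FPKM (log2 fold change -1.88, standard error 0.08, limma adjusted p = 8.41e-06). No liver of 1 group reached the range of the other for these 3 genes.

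Of 13 further genes of lysine, proline and glyoxylate metabolism 4 were higher, 5 lower and 4 did not pass, with a median log2 fold change of -0.00092 that was -0.20 after quantile normalization. From this list 3 genes of hydroxyproline and glyoxylate metabolism are given beside Grhpr, picked out after their values had been seen. Hoga1, the aldolase that releases glyoxylate from the hydroxyproline skeleton, fell from 83.03, 78.7 and 80.6 FPKM to 36.6, 36.4 and 38.8 FPKM (log2 fold change -1.10, standard error 0.041, limma adjusted p = 5.12e-06). Hao1, which makes glyoxylate from glycolate, fell from 170.1, 172 and 168 FPKM to 61.1, 59.6 and 61.5 FPKM (log2 fold change -1.47, standard error 0.03, limma adjusted p = 3.74e-07). Aldh4a1, which serves both proline and hydroxyproline breakdown, had 84.5, 90.1 and 85.4 FPKM in WT and 89.8, 93.4 and 91.04 FPKM in β-cateninΔ(ex3)/+ livers, with overlap between the groups (log2 fold change 0.076, standard error 0.038, limma adjusted p = 0.135).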

How the data were processed

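Total RNA of 3 WT and 3 β-cateninΔ(ex3)/+ livers was sequenced, and the authors deposited 1 table of FPKM, with a row for each gene. The submitters' processing notes name cutadapt 1.9, HISAT2 2.0.4, StringTie 1.3.4d, DESeq2 and edgeR. The genome build is not given in the sources used here; 48 of the 53 enzymes have the same start and end in GENCODE M21 (GRCm38). Columns were assigned to livers from their names, leaving 0 unassigned. FPKM are not counts, so DESeq2, the tool of the study, was not run, and no counting intervals are given; steps in the low values of single-exon genes gave only relative depths.

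From the FPKM, log2(FPKM + 1) was fitted for the 13243 genes whose FPKM averaged 0.5 or more, with limma 3.58.1 (lmFit, eBayes with trend) in R 4.3.3 and Benjamini-Hochberg adjustment over all genes tested. Genes passed at an adjusted p under 0.05, and were past both thresholds if they also changed at least 2-fold on this scale. The fit was tested on simulated data. Differences of log2(FPKM + 1) between related genes were compared by two-sided exact permutation tests. Promoter windows came from RefSeq, and motifs were searched on both strands. The adjustment over the pairs used scipy 1.17.1, and permutation tests, tables and figures used Python 3.11.15 with numpy 2.4.6, pandas 2.3.3 and matplotlib 3.10.9.

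The enzymes, marker lists and pathway lists were chosen with earlier results of these data known. Values per liver are given for enzymes past both thresholds, for both genes of each pair and for the most abundant gene of each group; of the wider list the 3 largest rises and falls were named. Fah, Amdhd1, Gldc, Csad, Psph, Mmut, Kyat3, Hoga1, Hao1 and Aldh4a1 fall outside this rule and were chosen after their values were seen. A listed gene with several entries in the table (1) was left out. The alternatives were scaling by median ratios, quantile normalization, a pseudocount of 0.1, a filter at 1 FPKM or none, the replicate block, eBayes without trend, each liver left out and the false discovery rate alone. The counts among genes of at least 10 FPKM were chosen after seeing the data.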

Additional observations from a re-analysis of the deposited data

How the results depend on the processing

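Past both thresholds, 24 enzymes were found in the main comparison, and the same 24 with the replicate block, without the eBayes trend, at a pseudocount of 0.1 and with the filter on low values removed or raised to 1 FPKM. After scaling by median ratios 22 were found, and 21 after quantile normalization. Leaving out 1 liver at a time gave 23 to 24. At a false discovery rate alone 47 enzymes passed (29 higher, 18 lower), 57 further pathway genes (32 and 25) and 7551 of all genes (4952 and 2599). The number of all genes past both thresholds was 1680 (1082 higher, 598 lower), and 2705 (1706 and 999) at a pseudocount of 0.1. Median-ratio scaling lowered the higher share of all these genes from 64.4% to 53.1%, and quantile normalization to 49.5%. For the enzymes it went from 79.2% to 72.7% and 66.7%, and for the further pathway genes median-ratio scaling gave 5 higher and 8 lower.

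Of 689 single-enzyme comparisons with an alternative, 662 kept direction and side of the adjusted p threshold, 17 turned direction, 8 no longer passed and 2 passed only there. The last 2 were those of Pipox, which passed as lower after either scaling. Cdo1, Haao and Hgd were under 2-fold after both scalings, Kmo and Dmgdh after quantile normalization and Haao without WT replicate 2, while Csad after both scalings and Chdh after quantile normalization came past 2-fold. After median-ratio scaling the log2 fold change turned to -0.032 for Tdo2, -0.048 for Ftcd, -0.13 for Mccc1 and -0.028 for Pccb. After quantile normalization it turned to -0.057 for Gstz1, -0.095 for Tdo2, -0.13 for Ftcd, -0.10 for Amt, -0.10 for Ivd, -0.15 for Mccc1 and -0.10 for Pccb. With 1 liver left out, Fah ranged from -0.092 to 0.044, Psph from -0.14 to 0.0078 and Mccc1 from -0.040 to 0.083. Beyond the scalings, Amt did not pass with the replicate block or without β-cateninΔ(ex3)/+ replicate 1 or 3, and Bckdk did not pass without WT replicate 1 or β-cateninΔ(ex3)/+ replicate 3. The ratio of Prodh to Prodh2 differed by 7.75 at a pseudocount of 0.1, and that of Bhmt to Bhmt2 by 1.72 after quantile normalization. The replicate numbers only name the livers: deviations of same-numbered livers correlated at 0.0268, 0.0213 and -0.0054 over 13243 genes, and the replicate block gave 24 enzymes and 1673 genes past both thresholds. The causes of these changes were not tested. Genes under about 1 FPKM, such as Acmsd and Prodh in WT and Phgdh in β-cateninΔ(ex3)/+ livers, rest on few fragments, and their folds are imprecise. Counting error could not be given, since FPKM keep no counts.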
